A study of Mus musculus with 18 samples.

Results

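The UDP-glucuronosyltransferase genes followed here in the kidney were 8: *Ugt2b5*, *Ugt2b34*, *Ugt2b35*, *Ugt2b36*, *Ugt2b37*, *Ugt2b38*, *Ugt3a1*, and *Ugt3a2*. They were chosen by name, as 8 of the 78239 genes in the count tables, and 14 other Ugt genes of the same tables were used for comparison. The libraries came from a piece of the left kidney of wild-type CD-1 mice, an outbred stock, at 6 wk of age, with 1 library per mouse. NP mice were born to dams fed 18% protein, and LP mice to dams fed 8% protein, through gestation and lactation. All offspring ate the NP diet from weaning, and all had received cationic ferritin, an injected label for glomeruli in MRI. There were 5 NP males, 5 LP males, 3 NP females, and 5 LP females. Males were collected 90 min and females 24 h after the last injection, so that sex and the time of collection cannot be told apart in any male-female comparison. Litters are not given in the labels, and p-values measure the spread between these mice.

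UDP-glucuronosyltransferases (UGTs) are membrane enzymes of the endoplasmic reticulum that join a sugar from a UDP-sugar to small fat-soluble molecules, which makes them soluble enough to leave in urine or bile. UGT2B enzymes use UDP-glucuronic acid and act on steroids, bile acids, fatty acids, and many drugs. The UGT3A enzymes are set apart by their use of other UDP-sugars. In the kidney, UGTs are found mainly in the proximal tubule.

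The 6 *Ugt2b* genes lie in 1 stretch of chromosome 5 (GRCm39), in the order *Ugt2b34* (87037626-87054814), *Ugt2b35* (87148701-87161742), *Ugt2b36* (87212668-87240422), *Ugt2b5* (87272226-87288211), *Ugt2b37* (87388352-87402663), and *Ugt2b38* (87557801-87572062). All but *Ugt2b35* are on the minus strand. *Ugt3a2* (9276974-9315118) and *Ugt3a1* (9335636-9371564) are neighbours on the plus strand of chromosome 15. Symbols follow GENCODE by Ensembl identifier (*Ugt3a1*, ENSMUSG00000049152; *Ugt3a2*, ENSMUSG00000072664), since the RefSeq table used here gives these 2 symbols to the opposite genes by position. *Ugt2b34* shares 24 exonic bases with a gene on the other strand, and counts taken without regard to strand cannot separate the pair there.

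Several of these genes are near copies of each other, which matters for how reads were assigned. Coding sequences of *Ugt2b5* and *Ugt2b38* were 97% identical with an identical run of 443 bases, those of *Ugt2b37* and *Ugt2b38* 94.1% identical, and those of *Ugt3a1* and *Ugt3a2* 93.3% identical. *Ugt2b34* was the most distant of the *Ugt2b* genes, at 72.7% to 73.4% identity to the others. Only uniquely mapped reads were counted, and of all 100-base windows in the transcript 75.8% were found in no other gene for *Ugt2b38*, 81.8% for *Ugt2b5*, and 98.9% for *Ugt2b37*. For *Ugt3a1* and *Ugt3a2* the share was 100%. The first 90 coding bases show how these pairs differ, with the bases that differ within a pair in capitals (1 of 90 for *Ugt2b37* and *Ugt2b38*, 7 of 90 for *Ugt3a1* and *Ugt3a2*).
Ugt2b37: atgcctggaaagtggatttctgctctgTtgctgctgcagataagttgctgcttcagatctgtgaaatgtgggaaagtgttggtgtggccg
Ugt2b38: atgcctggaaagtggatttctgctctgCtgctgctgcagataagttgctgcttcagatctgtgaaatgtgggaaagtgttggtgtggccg
Ugt3a1: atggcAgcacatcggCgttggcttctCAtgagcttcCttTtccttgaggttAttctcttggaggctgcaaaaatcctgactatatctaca
Ugt3a2: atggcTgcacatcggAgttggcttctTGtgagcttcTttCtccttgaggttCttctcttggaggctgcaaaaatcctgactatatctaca

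The stretch before each start site is shown next because 3 of the *Ugt2b* genes were higher in males and 1 in females. The sequences are the 250 bases before the RefSeq start site, each read from the RefSeq promoter table (GRCm38.p6) and found exactly once in GRCm39, whose positions are given. Capitals mark the longest run shared by *Ugt2b38*, *Ugt2b37*, and *Ugt2b5*, or the longest part of it where that part has at least 20 bases.
Ugt2b38 (chr5:87572063-87572312, minus strand): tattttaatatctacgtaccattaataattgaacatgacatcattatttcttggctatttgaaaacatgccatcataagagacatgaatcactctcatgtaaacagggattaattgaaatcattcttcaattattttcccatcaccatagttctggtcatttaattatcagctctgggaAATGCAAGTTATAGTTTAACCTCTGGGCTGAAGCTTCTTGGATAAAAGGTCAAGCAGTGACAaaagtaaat
Ugt2b37 (chr5:87402648-87402897, minus strand): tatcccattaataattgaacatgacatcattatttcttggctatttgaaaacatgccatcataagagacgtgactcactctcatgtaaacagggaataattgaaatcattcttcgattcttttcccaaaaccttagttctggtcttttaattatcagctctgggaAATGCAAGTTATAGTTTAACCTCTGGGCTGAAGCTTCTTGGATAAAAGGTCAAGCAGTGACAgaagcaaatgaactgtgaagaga
Ugt2b5 (chr5:87288200-87288449, minus strand): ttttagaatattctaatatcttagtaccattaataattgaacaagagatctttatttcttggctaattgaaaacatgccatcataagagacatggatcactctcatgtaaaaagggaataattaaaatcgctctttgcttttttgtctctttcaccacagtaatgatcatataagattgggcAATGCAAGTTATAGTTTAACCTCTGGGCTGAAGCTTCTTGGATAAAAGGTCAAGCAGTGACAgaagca
Ugt2b36 (chr5:87240415-87240664, minus strand): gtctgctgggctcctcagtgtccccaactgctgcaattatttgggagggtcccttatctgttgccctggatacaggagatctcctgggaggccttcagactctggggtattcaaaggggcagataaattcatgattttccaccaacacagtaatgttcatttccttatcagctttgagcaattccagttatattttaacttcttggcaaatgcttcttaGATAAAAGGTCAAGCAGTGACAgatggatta
Ugt2b34 (chr5:87054797-87055046, minus strand): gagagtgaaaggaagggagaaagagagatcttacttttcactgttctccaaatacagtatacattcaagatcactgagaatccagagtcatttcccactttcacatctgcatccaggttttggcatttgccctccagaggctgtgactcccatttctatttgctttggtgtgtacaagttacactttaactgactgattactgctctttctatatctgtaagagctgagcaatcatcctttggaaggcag

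The promoters of *Ugt2b38*, *Ugt2b37*, and *Ugt2b5* shared an identical run of 62 bases, which ended 10, 24, and 7 bases before their start sites. Of 32544 mouse promoters (250 bases before and 50 after the start site), 3 held this run, and these were the same 3 genes. The run was sought in these 3 genes because they were higher in males. Their promoters are near copies, 82.3% to 91% identical over this window, so finding the run in no other promoter is no evidence on sex. *Ugt2b36*, which had no reads, held 22 bases of it, while *Ugt2b35* and *Ugt2b34* held at most 8 and 7. Over the same window, the promoters of *Ugt2b37* and *Ugt2b38* were 91% identical, and that of *Ugt2b34* was 51.7% to 55% identical to the other *Ugt2b* promoters. Short motifs were searched on both strands of the 7 promoters found (no entry was matched to *Ugt3a1*): AGAACA, the core of a steroid receptor site, present in 18.9% of all promoters; GTTAAT, the core of an HNF1 site, in 7.13%; and TTCNNNGAA, a STAT5 site, in 8.33%. *Ugt2b38*, *Ugt2b37*, and *Ugt2b5* held 0 exact matches to any of the 3. Sites that depart from these letters were not sought, so this does not show that the promoters lack such sites. *Ugt2b34* and *Ugt2b36* held 1 AGAACA each, and *Ugt3a2* 1 GTTAAT. The RefSeq start site taken for *Ugt3a2* lies 2941 bases from the start of that gene in GENCODE. Those of the *Ugt2b* genes lie 0 to 18 bases from theirs.

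The libraries held from 14050486 to 23562411 gene-assigned reads each. Kidney markers were present in every library: 10 proximal tubule genes summed to between 5003 and 9359 TPM (counts scaled by exon length and then to the same total in each library). Liver, the other main site of these enzymes, was near absent, with 8 liver markers summing to 4.33 to 17 TPM and 4 of them under 1 TPM in every library. *Ugt2b1*, an abundant liver enzyme, had 0 reads. LP females 1 and 2 and NP female 3 stood apart from the other females. Their summed level of 8 interferon-stimulated genes was 73.8 to 142 TPM against 1131 to 5217 TPM in the other females and 755 to 1890 TPM in males, and that of 8 glucocorticoid receptor targets was 142 to 256 TPM against 566 to 899 TPM in the other females. On the second list NP female 3 lay within the male range of 234.5 to 454.5 TPM. This library also had the largest share of reads mapping to several places, 12.56% against 5.92% to 8.91% in the other libraries. Its share of reads not counted on genes was the largest too (36.09%), and its number of genes with a count the smallest (20541). Fits of the listed Ugt genes are given with and without these 3, and fits of other genes over all libraries only. In whole-tissue RNA, fewer cells of a type and less RNA per cell cannot be told apart.

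Of the 8 genes, 6 were read in these kidneys. *Ugt2b36* had 0 reads in all 18 libraries, out of 314344050 reads on genes, which allows at most 0.00954 CPM (counts scaled to a common library total; 3 reads over all libraries, counting error only). *Ugt2b35* had 2 reads in all, 1 in NP male 1 and 1 in LP female 1. The 6 others spanned a wide range of level per exon length. In males the order was *Ugt2b38* (4221 ± 798 TPM; SD, n = 10), *Ugt3a1* (1629 ± 132 TPM), *Ugt3a2* (436.5 ± 87.6 TPM), *Ugt2b37* (385 ± 73.8 TPM), *Ugt2b34* (6.62 ± 4.28 TPM), and *Ugt2b5* (2.8 ± 1.36 TPM). The levels of *Ugt3a2* and *Ugt2b37* overlapped across males, with *Ugt3a2* higher in 7 of 10, and so did those of *Ugt2b34* and *Ugt2b5*, although *Ugt2b34* was higher in 10 of 10. In females the order was *Ugt3a1* (935 ± 234 TPM; SD, n = 8), *Ugt3a2* (211 ± 118 TPM), *Ugt2b38* (135 ± 42.3 TPM), *Ugt2b34* (47.2 ± 22.7 TPM), *Ugt2b37* (1.78 ± 1.21 TPM), and *Ugt2b5* (0.417 ± 0.382 TPM). There, *Ugt3a2* and *Ugt2b38* overlapped, with *Ugt3a2* higher in 6 of 8 mice. *Ugt2b38* and *Ugt2b34* also overlapped, although *Ugt2b38* was higher in 8 of 8, and *Ugt2b37* and *Ugt2b5* overlapped, with *Ugt2b37* higher in 7 of 8.

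**Figure D1:**
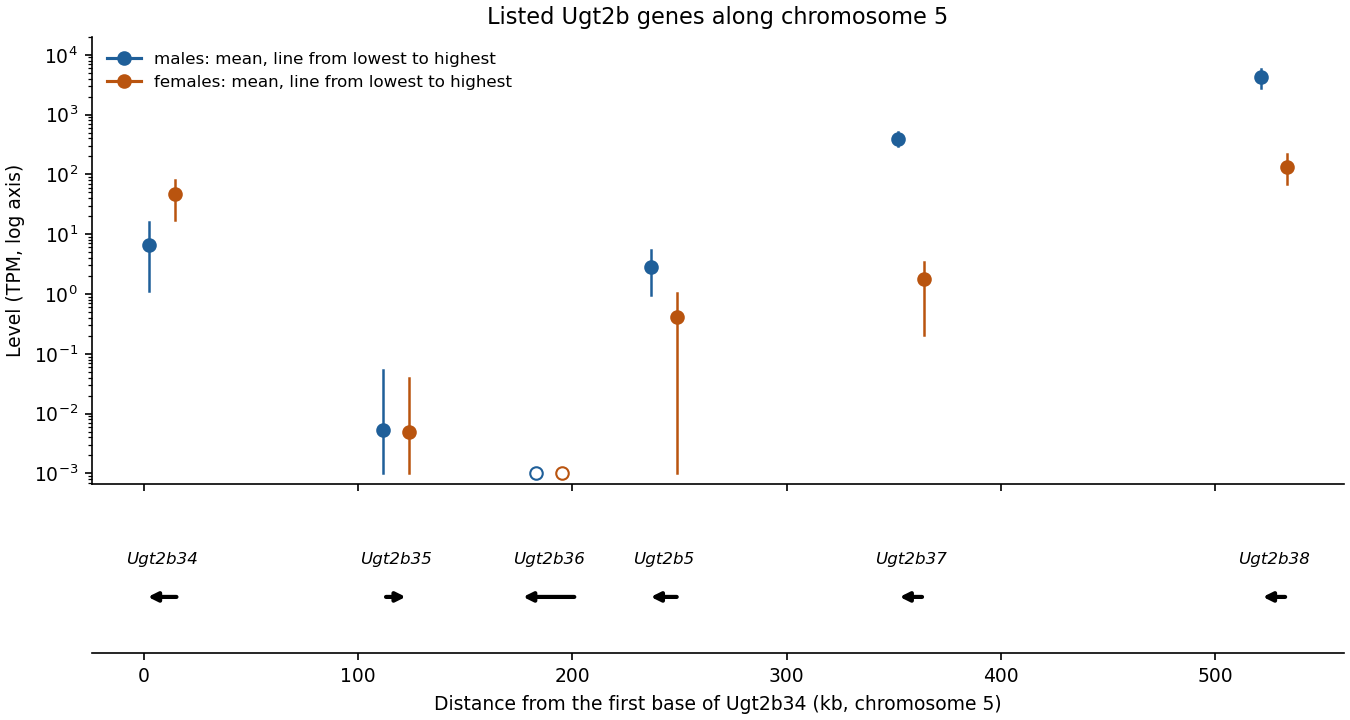
The 6 listed *Ugt2b* genes along chromosome 5: the upper panel gives the mean level in TPM (log axis) in 10 males and 8 females, with a line from the lowest to the highest mouse, and the lower panel the position and strand of each gene in kb from *Ugt2b34*. Values of 0 are drawn at the bottom, with open circles where the mean is 0; *Ugt2b38* and *Ugt2b37* at one end were higher in males and *Ugt2b34* at the other end was higher in females.

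The comparison of males and females used edgeR's quasi-likelihood test with diet as a covariate, over 15678 genes with a mean of at least 10 counts, and a gene was called at a Benjamini-Hochberg adjusted p under 0.05 and at least 1.5-fold. All 6 genes read were called: *Ugt2b37*, *Ugt2b38*, *Ugt2b5*, *Ugt3a2*, and *Ugt3a1* were higher in males, and *Ugt2b34* was higher in females. Of all genes tested, 19.6% were called, 7.68% higher in males and 11.9% higher in females, with a median log2 change of -0.06. *Ugt2b37* and *Ugt2b5* reached the filter mainly through the males, where they were high; when at least 10 counts were required in every library, 4 of the 8 genes were tested and 4 were called.

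*Ugt2b38*, a steroid and drug conjugating enzyme by family, was the leading Ugt transcript of the male kidney by TPM. The exon length used was 3640 bases for *Ugt3a1*, whose canonical transcript has 2329, and 1891 for *Ugt2b38*, whose canonical transcript has 1891. The level of *Ugt3a1* may thus be understated beside that of *Ugt2b38*. Only in LP male 4 among the males did *Ugt3a1* have more reads, 38631 against 30162. NP males 1 to 5 had 3575, 3998, 4344, 4083, and 5104 TPM, and LP males 1 to 5 had 3975, 3973, 5678, 2809, and 4676 TPM. NP females 1 to 3 had 124, 117, and 145 TPM, and LP females 1 to 5 had 219.9, 119, 143, 141, and 68.8 TPM. Every male was above every female, the lowest male standing 12.1-fold above the highest female in normalized counts (counts divided by a library's size factor). Males were 33.4-fold higher (log2 5.06, SE 0.24; edgeR adjusted p = 2.19e-11), with a 95% interval of 23.5 to 47.5-fold. The fold was 33.6 within NP mice, 33.5 within LP mice, and 40.2 without the 3 females that stood apart.

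*Ugt2b37*, its near neighbour, differed most. NP males had 315, 512, 465, 343, and 328 TPM, and LP males 342.5, 391, 386, 297, and 469 TPM. NP females had 2.81, 1.29, and 2.37 TPM, and LP females 2.69, 1.08, 0.209, 3.43, and 0.338 TPM, from 2 to 30 reads per library. Every male was again above every female. Males were 229-fold higher (log2 7.84, SE 0.38; edgeR adjusted p = 2.19e-11), with an interval of 132 to 395-fold; the fold was 185 within NP mice, 268 within LP mice, and 276 without the 3 females that stood apart.

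The sex difference of *Ugt2b37* was larger than that of *Ugt2b38*. The level of *Ugt2b37* was 9.3 ± 1.9% of that of *Ugt2b38* in males (SD, n = 10; range 6.43% to 12.8%) and 1.275 ± 0.801% in females (SD, n = 8; range 0.146% to 2.43%), so that the ranges did not overlap. Permuting sex within each diet group, the log2 ratio of the 2 genes was 2.92 higher in males (exact two-sided p = 7.09e-05, the smallest that 14112 permutations can give), and 3.05 higher without the 3 females that stood apart (exact p = 0.00085, again the smallest possible). This ratio was chosen after the values were seen. How many reads of a near copy were taken for *Ugt2b37* in females was not tested.

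*Ugt2b5*, the nearest relative of *Ugt2b38* in coding sequence, was read at a low level. NP males had 1.66, 5.49, 3.8, 2.22, and 0.974 TPM, and LP males 4.39, 2.33, 2.77, 2.05, and 2.36 TPM. NP females had 0.267, 0.268, and 0 TPM, and LP females 1.02, 0.973, 0.397, 0.348, and 0.0642 TPM. Males were higher (log2 2.93, SE 0.49; 7.61-fold, interval 3.71 to 15.6; edgeR adjusted p = 0.000146), with 16.4-fold within NP mice, 5.28-fold within LP mice, and 11.4-fold without the 3 females that stood apart. The ranges of the sexes overlapped in TPM, where LP female 1 was above NP male 5, and did not overlap in normalized counts, where the lowest male was 1.11-fold above the highest female, and female libraries held 0 to 15 reads. Since *Ugt2b5* shares long identical stretches with *Ugt2b38*, a far more abundant transcript in both sexes, its count is uncertain. The *Ugt2b5* level was 0.0686 ± 0.0346% of that of *Ugt2b38* in males and 0.293 ± 0.252% in females. The male minus female difference of this log2 ratio was -2 (exact two-sided permutation p = 0.00177), and -2.22 without the 3 females that stood apart (exact p = 0.00085, the smallest possible). The ratio was chosen after the values were seen, as was the ratio of the *Ugt3a* genes.

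*Ugt2b34*, the most divergent *Ugt2b* gene here, went the other way. NP males had 3.46, 7.21, 8.79, 6.49, and 1.12 TPM, and LP males 9.56, 6.58, 4.4, 16.1, and 2.54 TPM. NP females had 17.4, 71.8, and 23.1 TPM, and LP females 80.5, 58.8, 52.7, 32.5, and 40.7 TPM. Every female was above every male, although by only 1.15-fold between the lowest female and the highest male in normalized counts. The gene was 6.41-fold higher in females (log2 -2.68, SE 0.35, male minus female; edgeR adjusted p = 1.03e-05), with the same 6.41-fold within NP mice, 6.4-fold within LP mice, and 5.79-fold without the 3 females that stood apart. It also varied most among the 6 genes between males: the coefficient of variation of its normalized counts over the 10 males was 58.3%, against 46.5% for *Ugt2b5*, 22.7% for *Ugt2b38*, 19.5% for *Ugt2b37*, 15.8% for *Ugt3a2*, and 5.36% for *Ugt3a1*.

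The *Ugt3a* pair was read in both sexes. *Ugt3a1* stood at 1671, 1626, 1681, 1765, and 1434 TPM in NP males and at 1621, 1441, 1612, 1869, and 1573 TPM in LP males. It stood at 961, 938.5, and 525.8 TPM in NP females and at 753, 813, 1120, 1247, and 1124 TPM in LP females. Every male was above every female, and males were 1.91-fold higher (log2 0.93, SE 0.11; interval 1.63 to 2.24-fold; edgeR adjusted p = 2.39e-06), with 2.18-fold within NP mice and 1.74-fold within LP mice.

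*Ugt3a2* stood at 412, 339, 441, 498, and 328 TPM in NP males and at 477, 319, 483.5, 591, and 477 TPM in LP males. It stood at 196, 217, and 44.9 TPM in NP females and at 89.5, 155, 409.5, 286.5, and 291 TPM in LP females. Males were 2.4-fold higher (log2 1.26, SE 0.26; interval 1.64 to 3.51-fold; edgeR adjusted p = 0.00101), but here the sexes overlapped, LP female 3 reaching the lower males. The lowest 3 values were those of the females that stood apart, with 44.9, 89.5, and 155 TPM against 196 TPM or more in the other females. The same 3 libraries had 5003 to 7064 TPM of the 10 proximal tubule markers, against 6103 to 8399 TPM in the other females, and the part of this in the result was not tested. The fold of *Ugt3a2* was 2.97 within NP mice and 2.07 within LP mice. Without the 3 the difference was 1.82-fold for *Ugt3a2* and 1.71-fold for *Ugt3a1*. The ratio of *Ugt3a2* to *Ugt3a1* was higher in males by 0.50 on the log2 scale over all libraries (exact permutation p = 0.0219) and by 0.10 without the 3 (exact permutation p = 0.405), so that this difference rested on those libraries.

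By exact permutation of sex within diet groups, each of the 6 genes differed between the sexes: p = 7.09e-05, the smallest possible, for *Ugt2b5*, *Ugt2b34*, *Ugt2b37*, *Ugt2b38*, and *Ugt3a1*, and p = 0.000142 for *Ugt3a2*. Sex differences were common: by edgeR, 6960 of 15678 genes had an unadjusted p under 0.05. The permutation, and the separation of all males from all females, were not examined over all genes.

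**Figure D2:**
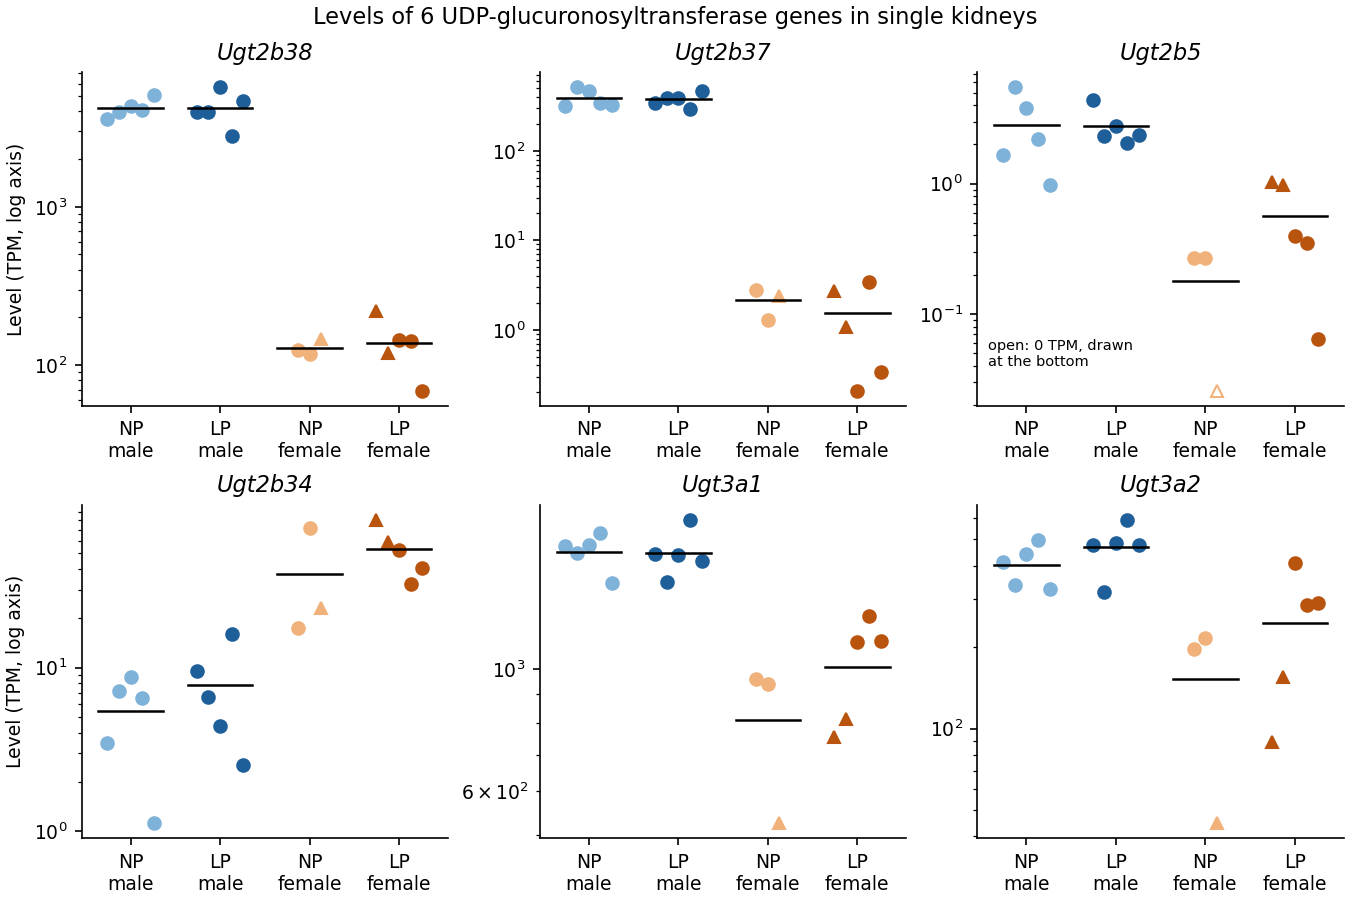
Level of each of the 6 genes read (TPM, log axis, each panel with its own range) in single kidneys of the 4 groups: points are mice, triangles the 3 females that stood apart, black lines group means, and the open mark a value of 0 drawn at the bottom. Every male lies above every female for *Ugt2b38*, *Ugt2b37*, and *Ugt3a1*, every female lies above every male for *Ugt2b34*, and the sexes overlap for *Ugt3a2* and, by 1 mouse of each sex, for *Ugt2b5*.

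**Figure D3:**
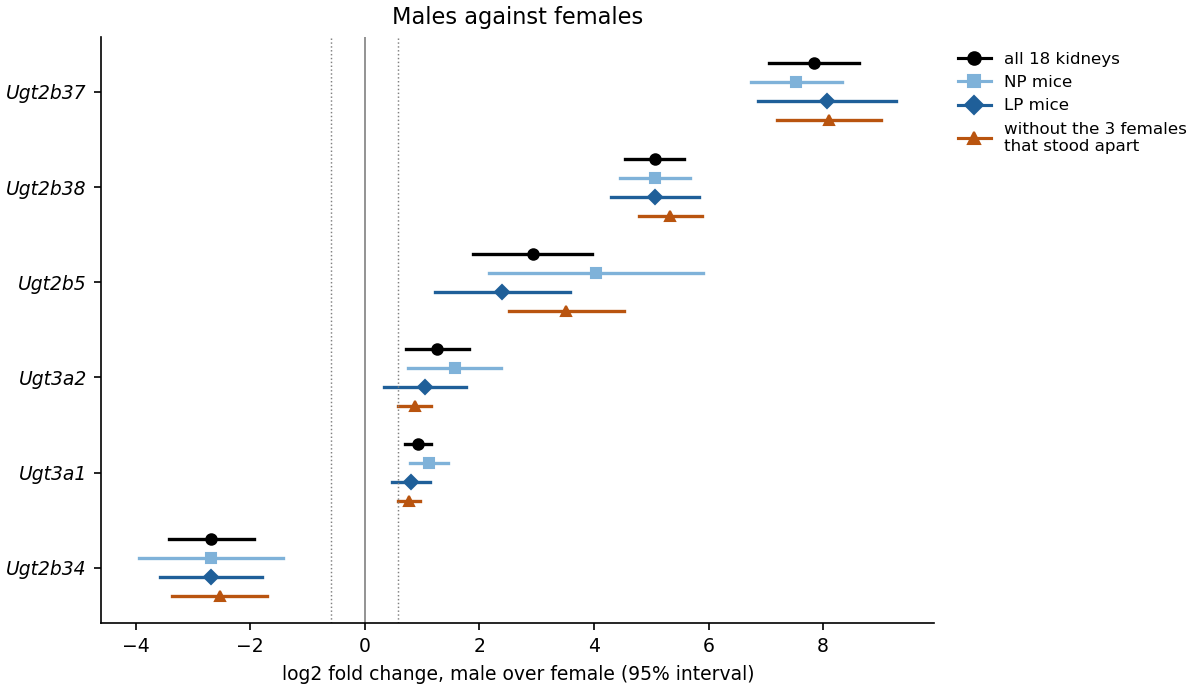
Male over female log2 fold change from edgeR with its 95% interval for the 6 genes read, in all 18 kidneys, in each diet group alone, and without the 3 females that stood apart. Dotted lines mark 1.5-fold either way; over all kidneys the estimates run from 7.84 for *Ugt2b37* to -2.68 for *Ugt2b34* and keep their sign in each subset.

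The other Ugt genes differed by sex in both directions. Of 14 listed, 7 were tested, 3 were called higher in males and 2 higher in females, and the latter reached the filter through the females alone. *Ugt1a2* had 0 to 7 reads in males and 2140 to 13084 reads in females, and *Ugt1a1*, the bilirubin conjugating enzyme, had 0 to 2 reads in males and 5 to 69 in females. *Ugt8a*, which makes galactosylceramide, was 12.7-fold higher in males (edgeR adjusted p = 2.18e-11), *Ugt1a6b* 2.18-fold higher (edgeR adjusted p = 0.0351), and *Ugt1a9* 1.74-fold higher (edgeR adjusted p = 0.0439). *Ugt1a7c* (log2 0.63, SE 0.43) and *Ugt1a10* (log2 -0.51, SE 0.28) were not called, with edgeR adjusted p = 0.276 and 0.172. The *Ugt1a* genes share their last exons, where reads fit several genes and are not counted, so their levels may be understated.

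Summed over all 22 Ugt genes, males held 6816 ± 730 TPM (SD, n = 10) and females 1974 ± 525.5 TPM (SD, n = 8), with no overlap (5751 to 8286 TPM against 1002 to 2573 TPM). *Ugt2b38* made up 61.5 ± 5.85% of the male sum and 7.54 ± 3.75% of the female sum. *Ugt3a1* made up 24.2 ± 3.86% in males and 48.3 ± 8.43% in females, while *Ugt1a2* made up 0.00251% in males and 26.1 ± 7.88% in females. The 8 listed genes together held 98 ± 0.551% of the sum in males and 68.5 ± 9.65% in females. In the 5 females that did not stand apart, the sum was 2203 ± 420.6 TPM (SD), with 5.6 ± 1.93% from *Ugt2b38*, 50.2 ± 9.47% from *Ugt3a1*, and 25.6 ± 9.68% from *Ugt1a2*. Reads in stretches shared between genes are not counted, and the exon length of some genes, such as *Ugt3a1*, exceeds that of their canonical transcript. These sums and shares may therefore be skewed. In females *Ugt1a2* and the sum may be understated, and the shares of the other genes overstated.

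**Figure D4:**
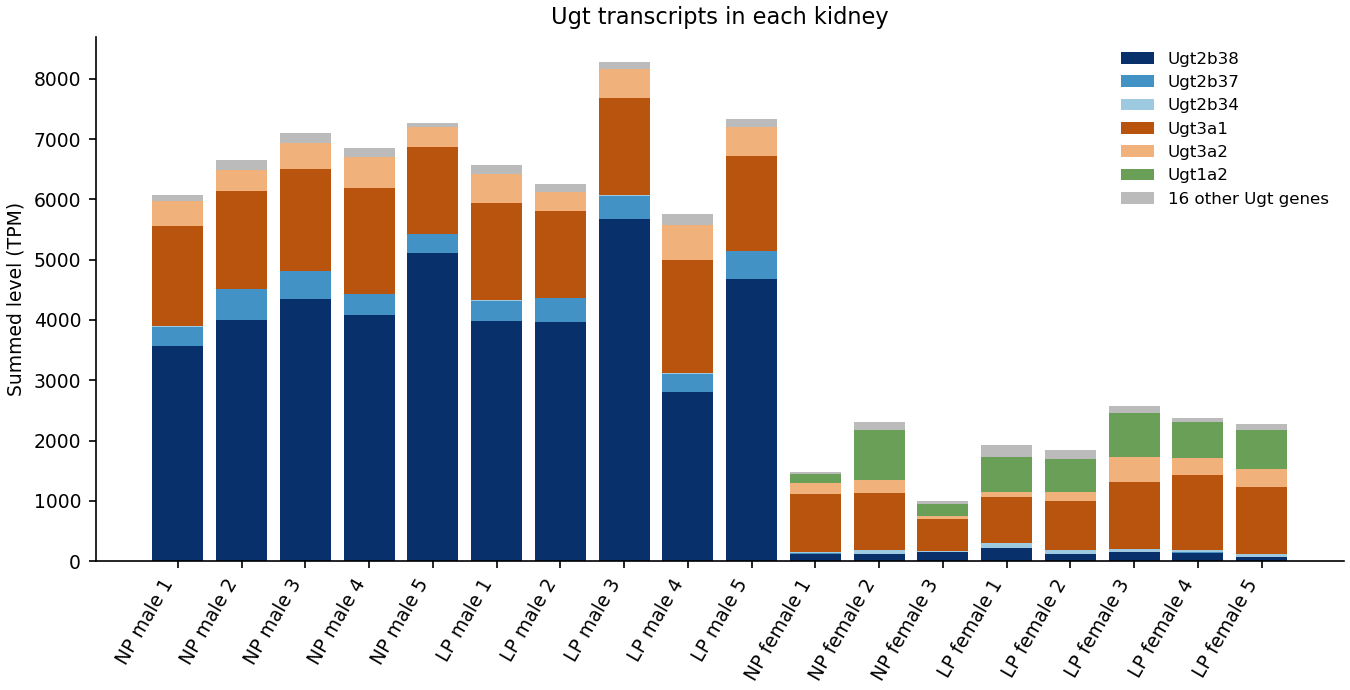
Level of Ugt transcripts in each of the 18 kidneys (TPM, stacked by gene, bars from 0). Male bars reach 5751 to 8286 TPM and are mostly *Ugt2b38*, and female bars reach 1002 to 2573 TPM and are mostly *Ugt3a1* and *Ugt1a2*. Levels of the *Ugt1a* genes may be understated.

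Maternal diet was compared within each sex, LP against NP, among genes that reached 10 counts in each library of that sex. None of the listed Ugt genes was called, and none had an unadjusted p under 0.05. In males, 6 of the 8 were tested and edgeR called 0.0379% of 13181 genes, all lower in LP. LP males had 1.13-fold the NP level of *Ugt3a2* (95% interval 0.924 to 1.38), 0.987-fold that of *Ugt2b38* (0.738 to 1.32), 0.97-fold that of *Ugt3a1* (0.862 to 1.09), and 0.951-fold that of *Ugt2b37* (0.742 to 1.22). None of these 4 intervals reaches 1.5-fold in either direction. For *Ugt2b34* (1.41-fold, 0.662 to 2.98) and *Ugt2b5* (0.97-fold, 0.534 to 1.76) the interval includes 1.5-fold in both directions. By exact permutation on log2(normalized counts + 1), p lay between 0.246 and 0.81 for the 6 genes, where the smallest possible is 0.00794.

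In females, 4 of the 8 were tested and edgeR called 0% of 13510 genes (564 had an unadjusted p under 0.05; DESeq2 called 9). LP females had 1.59-fold the NP level of *Ugt3a2* (95% interval 0.7 to 3.6; edgeR adjusted p = 0.886), 1.36-fold that of *Ugt2b34* (0.699 to 2.64), 1.18-fold that of *Ugt3a1* (0.845 to 1.66), and 0.969-fold that of *Ugt2b38* (0.571 to 1.65). All 4 intervals include a 1.5-fold rise, so that a rise of this size was not excluded with 3 NP females. Only the interval of *Ugt2b38* also includes a 1.5-fold fall. The value of *Ugt2b34* depended on NP female 2, the highest of the NP females: without it the log2 difference was 1.14 (SE 0.37; edgeR adjusted p = 0.175) in place of 0.44. *Ugt2b37* and *Ugt2b5* fell short of 10 counts in some female libraries; LP and NP females overlapped in both, with exact permutation p = 0.304 and 0.161. Without the 3 females that stood apart, *Ugt3a2* was 1.63-fold the NP level (interval 1.19 to 2.24; unadjusted p = 0.00821, edgeR adjusted p = 0.972 over all genes), with 3413, 3682, and 4896 normalized counts in the 3 LP females left and 2418 and 2473 in the 2 NP females left.

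The diet effect was not shown to differ between the sexes for any listed gene. In the interaction over all 18 libraries, 4 of the 8 genes were tested and 0 called, against 0.0158% of 12665 genes (0.0079% in each direction). The ratio of the diet effect in females to that in males was 1.4 for *Ugt3a2* (interval 0.671 to 2.92), 1.22 for *Ugt3a1* (0.909 to 1.63), 0.977 for *Ugt2b38* (0.537 to 1.78), and 0.973 for *Ugt2b34* (0.342 to 2.77). Without the 3 females that stood apart it was 1.28 for *Ugt3a1* (1.03 to 1.6; edgeR adjusted p = 0.999 over all genes). Of the other Ugt genes, *Ugt8a* stood at log2 -0.74 (SE 0.27) in females (edgeR adjusted p = 0.886) and none was called in either sex: *Ugt1a10* stood at log2 0.89 (SE 0.47) and *Ugt1a2* at 0.61 (SE 0.44) in females, and *Ugt1a9*, *Ugt1a10*, *Ugt1a7c*, *Ugt8a*, and *Ugt1a6b* between -0.27 and 0.33 in males.

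**Figure D5:**
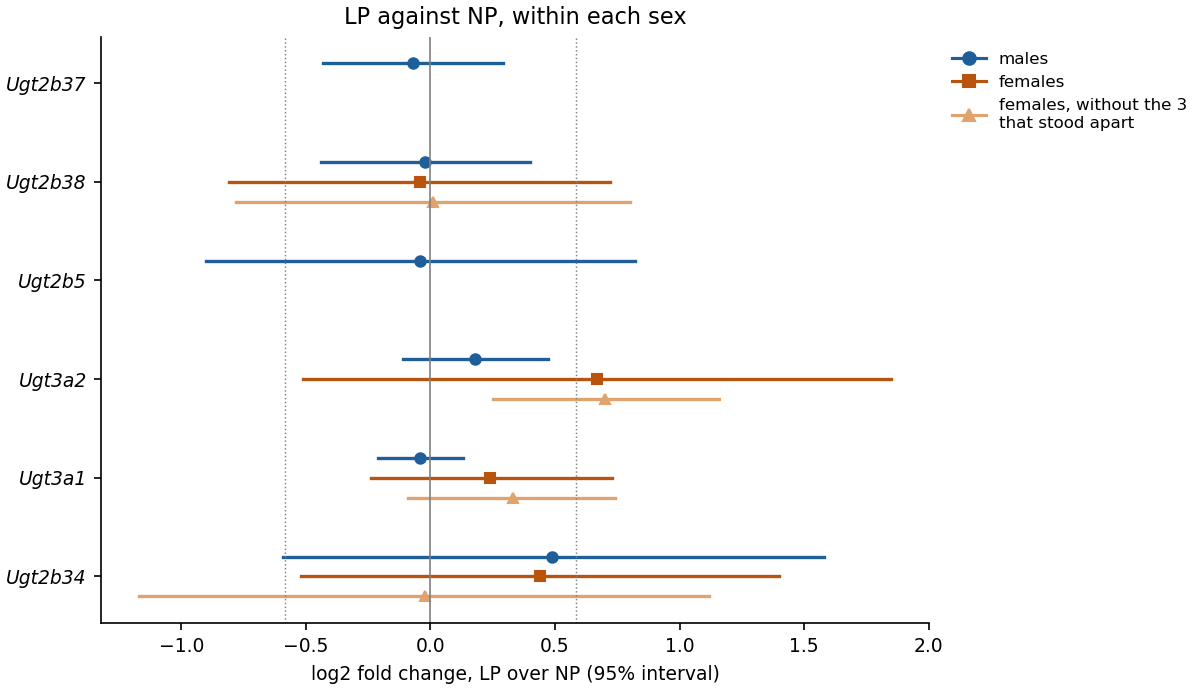
LP over NP log2 fold change from edgeR with its 95% interval for the listed genes tested, in males, in females, and in females without the 3 that stood apart. Dotted lines mark 1.5-fold either way; every interval crosses 0 except that of *Ugt3a2* in the last of these, from 0.25 to 1.16.

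Between mice of the same group, the *Ugt3a* pair moved together. The deviations of *Ugt3a1* and *Ugt3a2* from their group means, in log2(CPM + 1), correlated at Pearson r = 0.90 (permutation p = 0.00228) and Spearman rho = 0.92 (permutation p = 0.00017) over 18 mice. Adjusted over the 15 pairs of the 6 genes read, p was 0.0342 for r and 0.00255 for rho, and no other pair passed. Leaving out the 2 mice farthest from the median of *Ugt3a1* gave r = 0.78; r was 0.81 among the 10 males and 0.74 without the 3 females that stood apart. *Ugt2b37* and *Ugt2b38*, in contrast, gave r = 0.61, with a permutation p of 0.035 that became 0.187 after adjustment, and rho = 0.54, adjusted p = 0.219. Over all genes that reached 10 counts in each library, the deviations most like those of *Ugt3a2* were of *Prepl* (r = 0.958), *Abhd2* (0.949), and *Eprs1* (0.948), and those most like *Ugt3a1* were of *Abhd2* (0.930), *Etv6* (0.926), and *Slco2a1* (0.924). For *Ugt2b34* they were *Nadk2* (0.928), *Fign* (0.922), and *Rfx7* (0.916); for *Ugt2b38*, *Gm10288* (0.837), *Mettl22* (0.816), and *Edem2* (0.816); for *Ugt2b37*, *Gm33543* (0.793), *Strada* (0.774), and *Slco1a1* (0.770); and for *Ugt2b5*, *Thoc2l* (0.833), *Zfp740* (0.809), and *Ocrl* (0.789). These are the highest of 12665 correlations over 18 libraries and describe likeness only. Those named for *Ugt3a1* and *Ugt3a2* exceed the r of 0.90 between the pair, which is therefore not shown to be particular to it. The share of all genes that reach such an r was not counted. Among males alone the correlations named for *Ugt2b37* fell to between 0.404 and 0.433. Those named for *Ugt2b38* were 0.561 to 0.812 there, for *Ugt3a1* 0.650 to 0.799, and for *Ugt3a2* 0.715 to 0.875. For *Ugt2b5* they were 0.772 to 0.881, and for *Ugt2b34* 0.910 to 0.916.

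The genes around glucuronidation are given beside the share of all genes tested that was called between the sexes, 19.6% (7.68% higher in males and 11.9% higher in females), and counts near it are no result about a list. Of 7 genes that supply UDP-glucuronate or turn over glucuronides, 2 were called higher in males and 0 higher in females (median log2 0.46). *Gusb*, the lysosomal enzyme that takes glucuronate off again, was 14.6-fold higher in males (edgeR adjusted p = 1.5e-07), with 465 ± 109 and 528 ± 46 normalized counts in NP and LP females and 8277 ± 2542 and 6547 ± 5495 in NP and LP males (mean ± SD). *Pgm1* was 1.56-fold higher, and *Ugp2* and *Ugdh*, whose enzymes make UDP-glucose and UDP-glucuronate, were each 1.38-fold higher, under the 1.5-fold limit (edgeR adjusted p = 0.00585 and 0.00961). Of 6 genes of glucuronate use, *Xylb* (1.63-fold) and *Akr1a1* (1.52-fold) were called higher in males.

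Of 15 receptors and factors tied to Ugt transcription, 2 were called higher in males and 2 in females. *Nr1h4*, the bile acid receptor FXR, was 2.14-fold higher in males (edgeR adjusted p = 1.47e-07) and *Esr1*, the oestrogen receptor, 2.68-fold (edgeR adjusted p = 1.62e-06). *Nr1i2*, the xenobiotic receptor PXR, was 4.85-fold higher in females (edgeR adjusted p = 1.46e-06) and *Cebpa* 1.79-fold (edgeR adjusted p = 0.000199). *Stat5b*, a factor downstream of growth hormone, stood at a log2 difference of -0.05 (SE 0.14) and was not called. Of 7 efflux pumps listed, 3 were called higher in females, *Abcc3* (21.2-fold), *Abcb1a* (4.43-fold), and *Abcc4* (2.49-fold), and 1 in males, *Abcg2* (1.58-fold). Among the 6 sulfotransferases tested, enzymes of the other main conjugation path, *Sult1a1* was called, 1.61-fold higher in females.

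All 8 kidney genes listed as higher in males were called so, with a median log2 of 7.10. Of the 5 listed as higher in females, 4 were, and *Cyp2a4* was higher in males (log2 1.18, SE 0.30). Both lists were chosen with earlier results of these data known, so these counts are no independent test. Of the 10 proximal tubule markers, *Slc22a6* was called higher in males (4.43-fold), and *Slc22a8* (3.19-fold) and *Slc5a1* (1.69-fold) higher in females. Their sum ran from 7646 to 9359 TPM in males and from 5003 to 8399 TPM in females. Of 12 markers of other nephron segments, 9 were called higher in females, with sums of 2781 to 5234 TPM in males and 2912 to 9519 TPM in females. Of the other marker lists tested, *C1qa* was called higher in females among 10 endothelial, stromal, and immune genes (1.72-fold), *Alb* among 3 liver genes (2.54-fold), and *Sgk1*, *Pdk4*, and *Per1* among 8 glucocorticoid receptor targets (3.49, 2.09, and 1.7-fold). By edgeR 0 were called among 4 adipose and adrenal genes, 3 blood genes, and 8 interferon-stimulated genes, and 1 of these, *Hbb-bt*, had an unadjusted p under 0.05. The part of cell makeup in the sex differences of the Ugt genes was not tested. No gene of these lists was called between LP and NP in either sex.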

How the data were processed

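Poly(A) RNA from the kidneys of 18 mice was sequenced without strand information. The labels name STAR and GRCm39, and the study names GENCODE vM36. The authors deposited raw counts of uniquely mapped reads per gene, 1 table per mouse, and the unstranded column was used here. They had left out samples of low RNA quantity or quality and 1 sample whose sex did not match.

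Reads on genes ranged from 14050486 to 23562411 per library, and 28.6% to 36.1% of reads were not counted on genes. Groups came from the labels, and no pair of libraries was identical. CPM and TPM (exon length from GENCODE vM39) were computed from the counts. Intervals and floors on single counts cover counting error only.

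Tests used edgeR 4.0.16 (quasi-likelihood, TMM, Benjamini-Hochberg adjustment) in R 4.3.3. A call needed an adjusted p under 0.05 and 1.5-fold. Diet comparisons and the interaction kept genes that reached 10 counts in each library, and the sex comparison, with diet as covariate, those with a mean of at least 10. Exact two-sided permutation tests used log2(normalized counts + 1), with sex permuted within diet groups; correlations used 100000 permutations. Scripts were tested on simulated data. Alternatives were DESeq2 1.42.0, voom in limma 3.58.1, other filters, a replicate block, all 4 groups in 1 fit, and leaving libraries out. Analyses without the 3 females that stood apart within each diet, and the ratio tests, were chosen after seeing the data. The members, the gene lists, and the tests were chosen with earlier results of these data known. All listed Ugt genes are named, with list genes mainly where called, and the 3 genes most like each. A result for a receptor list gene was left out and is not reported here.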

Additional observations from a re-analysis of the deposited data

How the results depend on the processing

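Between the sexes, the genes read kept their direction and call in 184 of 184 results of single genes, over 31 refits. With at least 10 counts required in every library, *Ugt2b5* and *Ugt2b37* were not tested and the 4 others were called. No listed gene was called for diet or its interaction with sex in any refit. The number of genes called in males for diet was 9 with no filter, 15 with DESeq2, 2 with a replicate block, 1 with all 4 groups in 1 fit, and 2 to 6 leaving out 1 mouse. In females it was 3 with no filter, 9 with DESeq2, 1 without the 3 that stood apart, 2 with all 4 groups, and 0 to 2 leaving out 1 mouse. For the interaction it was 4 with DESeq2, 7 with voom, 0 with a replicate block, 0 without the 3, and 0 to 4 leaving out 1 mouse. Between the sexes it was 5544 by adjusted p alone, 1922 in NP mice, 1866 in LP mice, 1784 in NP mice without NP female 3, and 2039 in LP mice without LP females 1 and 2.

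Uncalled log2 diet effects changed sign as follows, and the cause was not tested. In males, voom gave -0.05 for *Ugt2b34* and 0.0136 for *Ugt2b38*, and the replicate block 0.0895 for *Ugt2b5*. Leaving out 1 male gave -0.26 to 0.32 for *Ugt2b5*, -0.15 to 0.0321 for *Ugt2b37*, and -0.17 to 0.12 for *Ugt2b38*. In females, *Ugt2b38* was 0.0196 with no filter, 0.15 with the block, 0.0109 without the 3, and -0.28 to 0.25 leaving out 1 mouse, and *Ugt2b34* was -0.0226 without the 3. *Ugt3a2* fell from 0.67 to 0.29 without NP female 3. *Ugt2b34*, 0.44 over all females, was 1.00 with voom (adjusted p = 0.242), 0.90 with the replicate block, and 0.12 to 1.14 leaving out 1 mouse, the highest without NP female 2 (edgeR adjusted p = 0.175; 0.175 to 1 over all refits of the listed genes). In the interaction, *Ugt2b38* was 0.0236 with no filter, 0.12 with the block, 0.0124 without the 3, and -0.27 to 0.25 leaving out 1 mouse, and *Ugt2b34* was 1.06 with voom, 0.33 with the block, and -0.39 to 0.62 leaving out 1 mouse.

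Replicate numbers shared by LP and NP mice did not pair them: same-numbered deviations correlated at -0.273 to 0.3 in males and -0.577 to -0.372 in females. The log2 ratio of *Ugt3a2* to *Ugt3a1* differed by 0.10 between the sexes without the 3 females (exact permutation p = 0.405). With 3 NP females, a 1.5-fold rise with the LP diet was not excluded for the listed genes tested in females. The 0 to 15 reads of *Ugt2b5* in female libraries limit its fold.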
